A study of Mus musculus with 51 samples.

Results

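The genes described here encode proteins that bring fatty acids into a cell and hold them there: the binding proteins Fabp3, Fabp4 and Fabp5, the membrane proteins Cd36, Slc27a1, Slc27a3 and Slc27a4, the lipase pair Lpl and Gpihbp1, and the activating enzyme Acsl1. These 10 genes were taken as a list of symbols, matched to 10 of the 53801 Ensembl identifiers of the count table, and 9 of them passed the filter on low counts that kept 17015 genes. They were followed in 51 RNA-seq libraries. The cells were C3H/10T1/2-SAM, mouse mesenchymal cells able to turn into fat cells, which carry the parts of a CRISPR gene activation system, in which a guide RNA brings activator proteins to the promoter of a chosen gene. The cells received 250 ng of plasmid in total: an empty vector in the EV groups, a plasmid with a guide RNA to Pparg in the P groups, or plasmids with guide RNAs to Pparg and to Ybx1 in the PY groups. All groups, EV included, were given 5 µM rosiglitazone, a drug that binds and activates PPARG, on day 0, 48 hours after transfection, and RNA was taken on days 0, 2 and 4. EV and P had 5 libraries on day 0 and 6 on each later day, and PY had 6, 5 and 6, from 6 numbered experiments. EV had no day 0 library from experiment 6, P had none from experiment 2, and PY had no day 2 library from experiment 4.

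Fat cells take up fatty acids that lipoprotein lipase, made by the fat cell and exported, frees from triglyceride in circulating lipoproteins. In tissue GPIHBP1 holds the lipase on the capillary wall, CD36 in the plasma membrane promotes uptake, binding proteins of the FABP family carry the fatty acid through the cytosol, and acyl-CoA synthetases such as ACSL1 join it to coenzyme A, after which it can be stored or burnt. Proteins of the SLC27 family take part in both uptake and activation. Several of these genes, Fabp4, Cd36 and Lpl among them, are textbook targets of PPARG in fat cells.

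Total counts ran from 3381870 to 114566739 per library, so the shallowest library bounds scarce genes least well. Pparg stood at 57.1 ± 15 CPM (counts scaled to a common library total, mean ± SD, n = 6) in EV and 239 ± 65.7 CPM (SD, n = 6) in P on day 4, and Ybx1 at 579 ± 72.1 CPM (SD, n = 6) in P and 1873 ± 404 CPM (SD, n = 6) in PY, in the order the labels give. Because Fabp4, Cd36, Lpl, Fabp3 and Gpihbp1 are also made by other cell types, marker lists of 8 genes each were examined. Under 1 CPM in every library were 4 of the 8 endothelial genes (Cdh5, Tie1, Emcn and Cldn5), 4 of the 8 macrophage genes (Ptprc, Adgre1, Itgam and Tyrobp), 5 of the 8 muscle genes, Myod1 among them, and 3 of the 8 epithelial genes, Epcam among them. Of the others, Tek reached 48.5, Vwf 6.05, Pecam1 4.31 and Kdr 1.79 CPM (endothelium), Cd14 12.5, Csf1r 2.37, Lyz2 1.33 and Mrc1 1.02 CPM (macrophage), Acta1 59.1, Tnnt2 27.7 and Tnnt3 1.69 CPM (muscle), and Krt8 11.9, Cdh1 4.77, Krt18 3.38, Cldn4 2.85 and Krt19 1.05 CPM (epithelium). The summed lists reached at most 49.5 CPM (endothelium), 13.9 CPM (macrophage), 71.4 CPM (muscle) and 16.6 CPM (epithelium). Mesenchymal markers summed to between 6441 and 18768 CPM, with day 4 medians of 16582 CPM in EV, 11240.3 CPM in P and 11371 CPM in PY. Without a block 0 of these 8 passed as lower in P against EV on day 2 or day 4, and 1, Pdgfrb, in PY against EV on each of those days. With the experiment as a block 4 were lower on day 2 (Col1a1, Col1a2, Thy1 and Pdgfrb, background 0.858%) and the first 3 of these on day 4 (background 2.2%) in P, and all 4 on day 2 (background 3.41%) and day 4 (background 5.52%) in PY. Fat cell markers summed to between 7.63 and 147 CPM in EV, between 300.2 and 4868 CPM in P from day 2, and between 230.5 and 5256 CPM in PY from day 2, so fat cell markers moved up, and with the block these mesenchymal markers down, with the same groups in which the members were higher, and the part of either in each result was not tested. In whole cultures, more cells of a type and more RNA per cell cannot be told apart.

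Activation of Pparg came with higher RNA of 5 of the 9 tested members on day 2, namely Fabp4, Fabp5, Cd36, Lpl and Acsl1. These 5 passed the test (edgeR quasi-likelihood, Benjamini-Hochberg adjusted p under 0.05 over all 17015 genes) in P against EV on day 2, where 2.77% of all genes passed as higher, and again 5 of 9 on day 4, where 5.18% did. On day 0, 0 of 9 passed with edgeR, against a background of 0.00588%, and 2 had an unadjusted p under 0.05 (Fabp4 and Cd36), with DESeq2 passing 1, Fabp4. In PY against EV 1 of 9 passed on day 0 (Fabp4, with DESeq2 also Cd36, background 0.047%), the same 5 genes on day 2 (background 4.35%) and 7 on day 4 (background 7.03%), the added members being Slc27a1 and Fabp3. None of the 9 passed as lower in any of these comparisons, where the share of all genes that did was 0, 0.0588 and 0.194% on days 0, 2 and 4 in P and 0, 0.388 and 0.799% in PY. The median log2 fold change over the 9 members was 1.91 on day 2 and 2.75 on day 4 in P against EV, beside -0.023 and -0.059 over all tested genes. The P and PY comparisons share the EV libraries. Each p-value rests on a spread per gene estimated over the libraries within all 9 groups, not only within the groups compared. Libraries of a group come from separate experiments. Where the ranges of groups are compared below, the share of all genes without overlap was not counted.

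**Figure D1:**
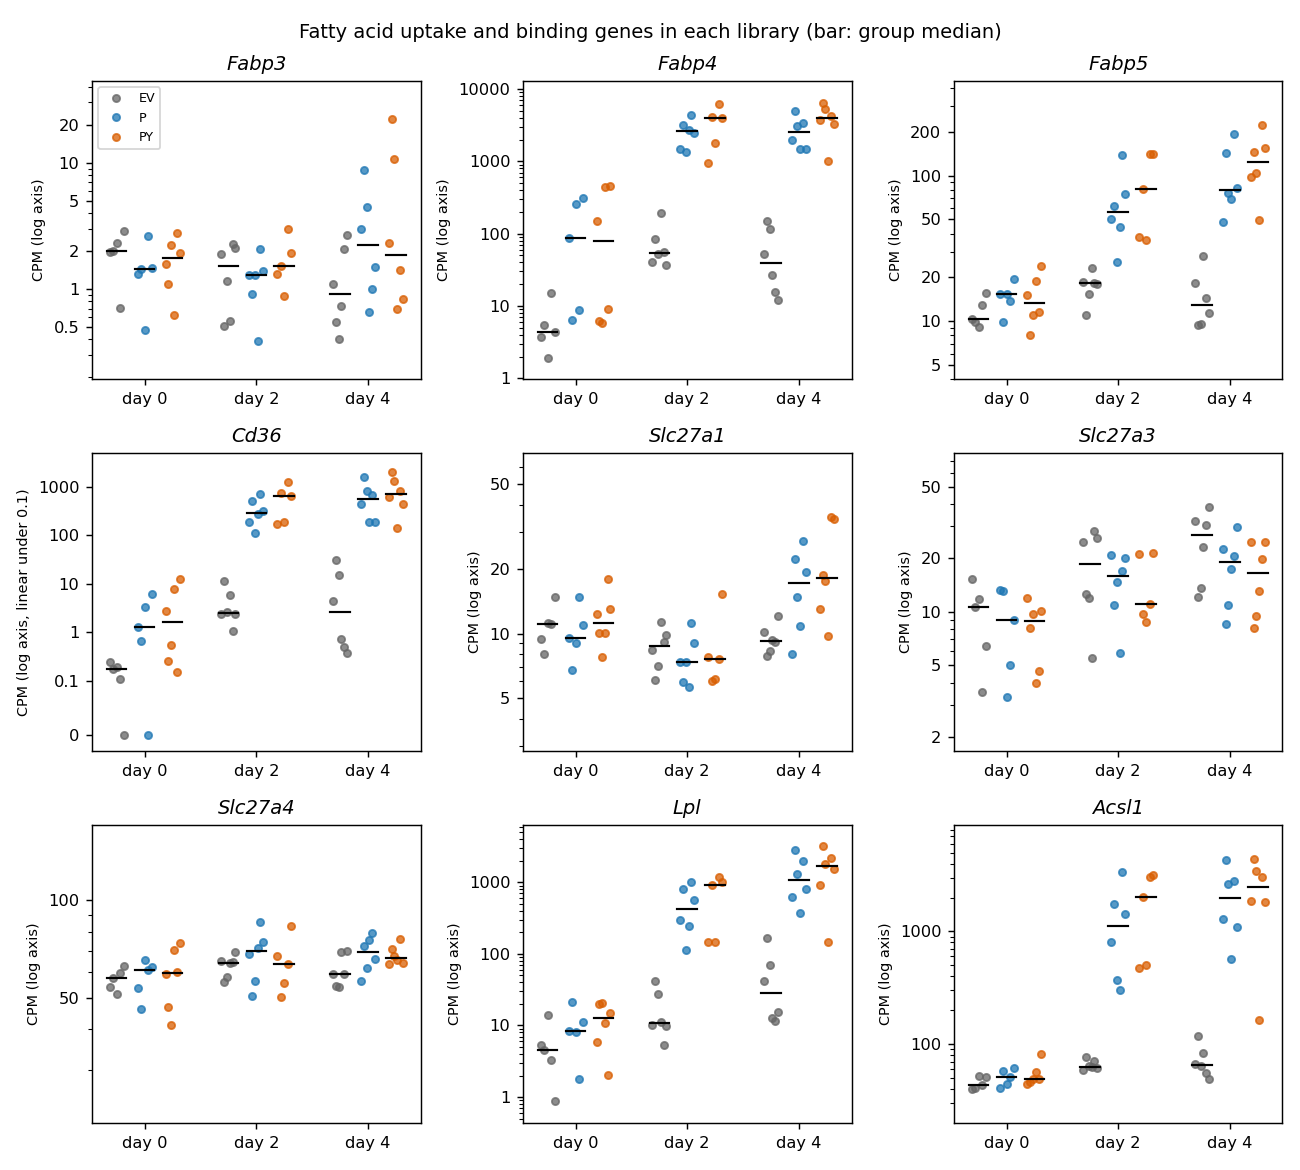
Level of each tested member in every library, in CPM on a log axis (linear under 0.1 for Cd36), with EV in grey, P in blue and PY in orange, by day. Bars are group medians. From day 2 the P and PY libraries of Fabp4, Fabp5, Cd36, Lpl and Acsl1 lie above all EV libraries of the same day, except 1 PY library of Lpl on day 4, and Slc27a4 stays between 41.2 and 85.6 CPM throughout.

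To compare levels between genes, CPM was divided by the length in kilobases of the principal transcript. In EV on day 0 the most abundant member per length was Slc27a4 at 14.1 ± 1.12 CPM per kb (SD, n = 5), followed by Fabp5 at 11.7 ± 2.67, Acsl1 at 11.7 ± 1.48 and Fabp4 at 6.84 ± 5.88 CPM per kb, with ranges of neighbours in this order that overlap. Slc27a3, Slc27a1, Fabp3 and Lpl came next, and Cd36 stood far below at 0.0427 ± 0.0277 CPM per kb. With the joined length of all exons in place of the principal transcript, Slc27a4 stayed first at 13 and Cd36 last, but Acsl1 at 4.36 and Slc27a3 at 3.71 came before Fabp5 at 3.25, and Fabp3 at 2.4 and Slc27a1 at 1.87 before Fabp4 at 1.37 CPM per kb. In P on day 4 the order was Fabp4 at 3029 ± 1486, Acsl1 at 543 ± 356, Lpl at 324 ± 231, Cd36 at 194 ± 155 and Fabp5 at 103 ± 55.8 CPM per kb (SD, n = 6), all above Slc27a4, whose own level was 16.9 ± 2.14 CPM per kb. Fabp4 did not overlap with Acsl1, and Fabp5 did not overlap with Slc27a4, while Acsl1, Lpl, Cd36 and Fabp5 each overlapped with the next. With the joined exon length, Fabp4 stayed first at 605 and Acsl1 next at 202, but Cd36 at 183 came before Lpl at 127 CPM per kb. Cd36 thus went from the last of the 9 tested members to the fourth, or the third by that other length. Fabp5 entered this order without the counts assigned to its near-identical copy Gm6166, described below. Gm6166 had a mean of 9.72 CPM in EV on day 0, beside 11.6 CPM for Fabp5, and of 96.3 CPM in P on day 4, beside 101.9 CPM. The place of Fabp5, and with it those of Slc27a4 and Cd36, therefore depends on how such reads were counted, which is not given.

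Fabp4 (ENSMUSG00000062515, chr3:10204088-10208576, minus strand, GRCm38), the binding protein typical of fat cells, passed the edgeR test on day 0 in PY, where no other member did. On day 0 its level was 1.94, 3.76, 4.3, 5.37 and 15.3 CPM in the 5 EV libraries and 6.49, 8.85, 88.3, 260.1 and 315 CPM in the 5 P libraries. The 6 PY libraries had a lowest, median and highest level of 5.84, 79.4 and 450.5 CPM. The P and PY libraries of experiments 1, 4 and 6 were high, between 88.3 and 450.5 CPM. Those of experiments 2, 3 and 5 were within the range of EV, which reached 15.3 CPM in experiment 4 alone, so the groups overlapped. Beside EV of the same experiment, Fabp4 was higher in P in 4 of 4 experiments, by 2.04-fold (experiment 5) to 23-fold (experiment 1). In PY it was higher in 5 of 5, by 1.16-fold (experiment 2) to 39-fold (experiment 1). The fold change was 21.5 in P (95% interval 5.29 to 87.6, adjusted p = 0.277) and 28.1 in PY (interval 6.84 to 115, adjusted p = 0.0441). These folds compare whole groups, whose experiments are not the same. Experiment 6, high in P and PY, has no EV library on day 0, and experiment 2, low in PY, has no P library. The PY call rested on single libraries: it was lost when any 1 of 7 of the 11 libraries was left out (EV replicates 1, 2, 3 and 5, PY replicates 1, 4 and 6), with adjusted p up to 0.273, and when any 1 of the 6 experiments was left out (adjusted p up to 0.756), while without EV replicate 4, the highest EV library, the fold was 44.5. By DESeq2 the P difference passed too, with an adjusted p of 1.02e-05.

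On day 2 Fabp4 had a lowest, median and highest level of 37.3, 53.6 and 194 CPM in EV and 1329, 2610.1 and 4415 CPM in P, and on day 4 of 11.9, 39.3 and 148 CPM in EV and 1479, 2512 and 4885 CPM in P. Every P library exceeded every EV library of its day. The fold was 33.8 on day 2 (interval 9.13 to 125, adjusted p = 0.000391) and 44.2 on day 4 (interval 11.6 to 168, adjusted p = 8.19e-05). PY had 963, 1801, 4029, 4048 and 6248 CPM on day 2 and 1018, 3984 and 6441 CPM (lowest, median, highest) on day 4, and differed from EV 44.3-fold and 64.9-fold (adjusted p = 0.000124 and 1.74e-05). The lowest PY library of day 4 was that of experiment 4. Fabp4 also rose in EV itself, 12.2-fold from day 0 to day 2 (interval 3.23 to 46.4, adjusted p = 0.0149), which was 19.4-fold without EV day 0 replicate 4. That step passed without any 1 library, but not without experiment 1 (adjusted p = 0.081), without experiment 2 (adjusted p = 0.0608) or with no filter on low counts (adjusted p = 0.0503). The size of the P to EV difference was 1.57 times as large on day 2 as on day 0, with an interval of 0.3 to 8.24 that spans 1.

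Fabp5 (ENSMUSG00000027533, chr3:10012548-10016607, plus strand, GRCm38), the epidermal-type binding protein also present in fat cells and macrophages, rose less. Its levels on day 2 were 11, 18.2 and 23.3 CPM (lowest, median, highest) in EV and 25.4, 56.2 and 137 CPM in P, and on day 4 9.4, 12.9 and 27.9 CPM in EV, 48.2, 79.1 and 194 CPM in P and 49.6, 124 and 223 CPM in PY. EV and P did not overlap on either day. The P to EV fold was 3.77 on day 2 (interval 2.25 to 6.31, adjusted p = 0.0007) and 6.71 on day 4 (interval 3.94 to 11.4, adjusted p = 2.1e-06), and the PY to EV fold was 5.05 and 8.47 (adjusted p = 4.52e-05 and 2.34e-07). On day 0 P stood at 1.27 times EV (interval 0.728 to 2.21, adjusted p = 1). EV on day 2 was 1.5 times EV on day 0, which did not pass (adjusted p = 0.392).

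The counts of Fabp5 are uncertain because the mouse genome holds near-identical copies of the coding part of its messenger RNA. Gm6166 (ENSMUSG00000074280, chr9:57483963-57484371, plus strand), a processed pseudogene with no introns, aligned with 407 bases of the 408-base Fabp5 coding sequence. Besides 2 inserted bases after position 258 it had 5 substitutions, T9C, T189C, C261T, G341C and T393C, counted from the A of the start codon, with the base of Fabp5 first. The annotated copy is 409 bases long and the principal Fabp5 transcript 987, so the part of that transcript outside the coding sequence has no counterpart in the annotated copy. A stretch of 100 bases with 2 of these substitutions shows how little there is to tell the coding parts apart. It starts at coding base 259 of Fabp5, and the differing bases are in capitals (GENCODE M21 transcripts, GRCm38).
Fabp5: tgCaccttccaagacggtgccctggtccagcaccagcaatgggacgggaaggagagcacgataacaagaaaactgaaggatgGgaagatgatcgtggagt
Gm6166: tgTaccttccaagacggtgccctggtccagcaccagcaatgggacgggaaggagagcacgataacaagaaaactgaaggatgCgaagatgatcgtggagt
Over all libraries Gm6166 was assigned 54018 counts against 62261 for Fabp5, while the other 4 copies (Gm14328, Fabp5l2, Gm13998 and Gm6100) had 179 or fewer. Gm6166 made up between 34.6 and 62.1% of the counts of the pair, with a median of 47.2%, over the 51 libraries. Its level followed the same groups, with 14 ± 7.05 CPM (SD, n = 6) in EV and 96.3 ± 52.2 CPM (SD, n = 6) in P on day 4. Its P to EV fold was 3.62 on day 2 and 6.9 on day 4 (adjusted p = 0.0007 and 1.21e-06). With the 6 genes added up before the fit, which was tried after the data had been seen, the Fabp5 fold was 3.69 and 6.8. How reads that fit both genes were counted is not given in the sources used here, so the level of Fabp5 is uncertain by the share assigned to its copy, while its calls were the same with the copies added.

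**Figure D2:**
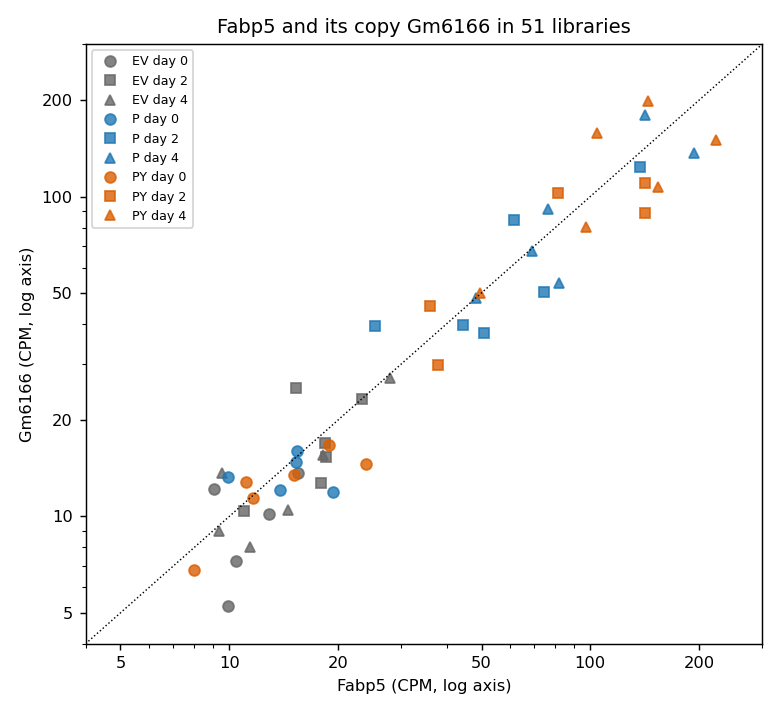
CPM of Fabp5 (horizontal, log axis) and of its processed copy Gm6166 (vertical, log axis) in 51 libraries, with EV in grey, P in blue, PY in orange and the day as symbol shape. The dotted line marks equal levels, and points of every group lie on both sides of it or close to it, at shares of Gm6166 between 34.6 and 62.1%.

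Fabp3 (ENSMUSG00000028773, chr4:130308595-130315463, plus strand, GRCm38), the heart-type binding protein, which brown fat also makes, passed against EV only in PY on day 4. It was scarce: day 4 levels were 0.406, 0.918 and 2.7 CPM (lowest, median, highest) in EV, 0.663, 2.23 and 8.78 CPM in P and 0.702, 1.87 and 22.2 CPM in PY. Counts of Fabp3 in EV on day 4 ran from 4 to 58, with 4 in experiment 3. The groups overlapped, and the experiments split. In experiments 1, 2 and 3 both P and PY were above EV, most in experiment 2, where EV had 0.547, P 8.78 and PY 22.2 CPM, and in experiment 3, where they had 0.406, 4.49 and 10.7 CPM. In experiments 4, 5 and 6 both were below EV, as in experiment 6 with 2.7, 1.5 and 0.83 CPM. The same 3 experiments were thus higher in P and in PY, and both share their EV library. The fitted fold was 2.5 in P (interval 1.04 to 6.02, adjusted p = 0.351) and 4.75 in PY (interval 1.94 to 11.6, adjusted p = 0.0181). That call was lost without PY replicate 2 (fold 2.47, adjusted p = 0.271) and without PY replicate 3 (fold 3.99, adjusted p = 0.0614), when experiment 1, 2 or 3 was left out (a log2 fold change of 1.14 and adjusted p = 0.426 without experiment 2), and in the fit of EV and PY day 4 libraries alone (adjusted p = 0.182). From day 2 to day 4 Fabp3 was 2.6-fold higher in P and 3.3-fold higher in PY, neither of which passed (adjusted p = 0.233 and 0.455). Fabp3 shares 81 exon bases with Zcchc17 on the opposite strand, which had 62738 counts in all against 2454 for Fabp3, and the strand setting of the counting is not given in the sources used here, so its low counts are uncertain. Fabp3 also shares 80 exon bases with Gm10570 on the opposite strand, which had 83 counts. A processed pseudogene, Fabp3-ps1, was 99.3% identical over 402 bases and had 138 counts, 5.62% of those of Fabp3.

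Among the 3 FABP genes, compared per length, Fabp5 held the largest mean share in EV on day 0, 57.7 ± 9.77% (SD, n = 5), with Fabp4 at 29.4 ± 15.7% and Fabp3 at 12.9 ± 6.23%. By day 2 Fabp4 held 77.5 ± 10.0% (SD, n = 6) in EV and 97.7 ± 0.687% (SD, n = 6) in P. On day 4 Fabp4 held 96.4% in P and 96.7% in PY. With the joined exon length the mean day 0 shares in EV were 46% for Fabp5, 35.2% for Fabp3 and 18.8% for Fabp4, so that Fabp3 came before Fabp4. By that length the day 4 share of Fabp4 in P was 94.7%. All these shares leave out the counts assigned to Gm6166. Were those counts reads of Fabp5, its share would be larger and those of Fabp4 and Fabp3 smaller.

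Cd36 (ENSMUSG00000002944, chr5:17781690-17888801, minus strand, GRCm38), the membrane protein that promotes uptake of long-chain fatty acids, had the largest fold change of the 9 members on day 2 and day 4 in both P and PY. On day 0 it was nearly silent in EV, with 0, 0.111, 0.175, 0.194 and 0.246 CPM, and had 0, 0.668, 1.31, 3.34 and 6.24 CPM in the P libraries. PY had 0.156, 1.65 and 12.4 CPM (lowest, median, highest). As for Fabp4, the highest P and PY values of day 0 came from experiments 1, 4 and 6 (6.24 and 12.4 CPM in experiment 6), and the groups overlapped. The fold was 14.2 in P (interval 2.13 to 95.4, adjusted p = 1) and 26.2 in PY (interval 4.1 to 168, adjusted p = 0.603). Neither passed with edgeR, and DESeq2 passed the PY difference (adjusted p = 0.00331). Both folds include experiment 6, the highest of P and of PY, which has no EV library on day 0.

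On day 2 Cd36 had 1.08, 2.53 and 11.7 CPM (lowest, median, highest) in EV and 113, 294 and 701 CPM in P, an 80.9-fold difference (interval 19.4 to 337, adjusted p = 5.53e-05). On day 4 it had 0.372, 2.62 and 30.8 CPM in EV, 189.9, 568 and 1596 CPM in P and 142, 708 and 2021 CPM in PY. All P and PY libraries lay above all EV libraries on both days. The day 4 fold was 75.8 in P (interval 18.4 to 312, adjusted p = 2.79e-05) and 102 in PY (interval 24.1 to 431, adjusted p = 7.75e-06), after 138 in PY on day 2 (adjusted p = 1.11e-05). EV replicate 2 alone held 30.8 CPM on day 4, and without it these folds were 168 and 227. Cd36 rose in EV from day 0 to day 2 as well, 27.1-fold (interval 4.25 to 173, adjusted p = 0.0205), in 5 of 5 experiments with both days. That call was lost without EV day 0 replicate 2, 4 or 5 or EV day 2 replicate 2, with adjusted p up to 0.0620 and a fold of 18 without the last. It was also lost when experiment 1, 2, 4 or 5 was left out, with adjusted p up to 0.0901.

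The upstream sequence of Cd36 was set beside that of Slc27a4, the member with the least change. RefSeq promoter windows (GRCm38.p6) were found for 6 of the 10 members: Fabp3, Cd36, Slc27a1, Slc27a3, Slc27a4 and Acsl1. Each sequence below is the 250 bases before a RefSeq start, on the strand of the gene: Cd36 at chr5:17835897-17836146 (minus strand, within the span of the gene) and Slc27a4 at chr2:29802384-29802633 (plus strand). Capitals mark the only match to AGGTCA, here read from the other strand as TGACCT.
Cd36: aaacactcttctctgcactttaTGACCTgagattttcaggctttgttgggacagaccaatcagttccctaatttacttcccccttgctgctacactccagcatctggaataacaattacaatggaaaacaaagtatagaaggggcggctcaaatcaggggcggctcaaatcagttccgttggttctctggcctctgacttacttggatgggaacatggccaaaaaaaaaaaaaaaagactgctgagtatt
Slc27a4: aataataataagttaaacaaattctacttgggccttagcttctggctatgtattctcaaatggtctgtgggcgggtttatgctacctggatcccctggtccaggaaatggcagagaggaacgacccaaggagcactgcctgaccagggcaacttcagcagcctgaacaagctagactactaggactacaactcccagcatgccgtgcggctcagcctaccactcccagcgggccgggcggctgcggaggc
The Cd36 stretch had 43.2% G and C with 3 CG pairs, and that of Slc27a4 54.4% with 8, beside medians of 52.4% and 6 over 32851 windows. AGGTCA, the core sequence bound by nuclear receptors, was present on either strand in 16.3% of all 32851 windows of 300 bases, which include 50 bases after the start. Among the 9 windows of the 6 members that had any, it was in 1, that of Cd36, which is near that share. Fabp4, Fabp5, Lpl and Gpihbp1 had no window and were not examined. The form bound by PPARG with its partner RXR, 2 copies of AGGTCA in the same direction with 1 free base between them, matched none of the members' windows and 0.0396% of all windows, and with the fourth letter of each copy left free also none and 0.381%. The letters TATAAA and a C/EBP-type motif (TTGC, 2 free bases, AA) matched none of the members' windows, against 13.6% and 10.8% of all. A missing match says only that these letters are not in these windows.

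Slc27a1 (ENSMUSG00000031808, chr8:71568882-71587302, plus strand, GRCm38), a fatty acid transport protein of fat and muscle, passed against EV on day 4 in PY and not before. On day 2 it had 6.06, 8.77 and 11.3 CPM (lowest, median, highest) in EV and 5.66, 7.37 and 11.3 CPM in P, and on day 4 had 7.88, 9.26 and 12 CPM in EV, 8.05, 17.2 and 27.1 CPM in P and 9.72, 18.3 and 35 CPM in PY. P was above EV in 5 of 6 experiments and PY in 6 of 6, with overlapping ranges. The fold over EV on day 4 was 1.8 in P (interval 1.24 to 2.63, adjusted p = 0.051) and 2.26 in PY (interval 1.55 to 3.29, adjusted p = 0.00208). The P difference, just outside the threshold, passed with the experiment as a block (adjusted p = 0.00526, 6 of 9 members then passing beside 7.89% of genes), with DESeq2 (adjusted p = 0.0275) and without P replicate 1 (fold 2.02, adjusted p = 0.0099), P replicate 4 or EV replicate 6.

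Between day 2 and day 4 Slc27a1 was 2.2-fold higher in P (interval 1.51 to 3.21, adjusted p = 0.0285), in 6 of 6 experiments, and was the only one of 9 members to pass there, against 0.558% of all genes. That call was lost when any 1 of 7 of the 12 libraries was left out (P day 2 replicates 1 to 4, P day 4 replicates 2, 5 and 6), with adjusted p up to 0.0986. It was also lost when experiment 2, 3, 5 or 6 was left out, with adjusted p up to 0.195. In PY the same step was 2.45-fold (interval 1.63 to 3.68, adjusted p = 0.116) without a block and passed with it (adjusted p = 0.000238), as 1 of 9 members beside 2.59% of genes. Without a block the edgeR test passed 0 of 17015 genes for that step (0%), 2 members having an unadjusted p under 0.05 (Fabp3 and Slc27a1), and DESeq2 passed 1 member. It passed without PY day 2 replicate 5 (adjusted p = 0.0433) and without PY day 4 replicate 4 (adjusted p = 0.0139). The P to EV difference was 2.01 times as large on day 4 as on day 2 (interval 1.18 to 3.41, adjusted p = 1), which did not pass.

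Slc27a3 (ENSMUSG00000027932, chr3:90385239-90389938, minus strand, GRCm38), a family member with acyl-CoA synthetase activity, passed in neither P nor PY against EV. Its day 4 levels were 12.1, 26.8 and 38.7 CPM (lowest, median, highest) in EV, 8.5, 18.8 and 29.8 CPM in P and 8.05, 16.4 and 24.6 CPM in PY. Ranges overlapped widely and experiments differed, but within each of the 6 experiments both P and PY lay below EV, at between 0.669 and 0.804 times EV in P and between 0.571 and 0.761 times in PY. The fit gave 0.728 for P (interval 0.421 to 1.26, adjusted p = 0.742) and 0.666 for PY (interval 0.385 to 1.15, adjusted p = 0.502), and neither passed with the block (adjusted p = 0.345 and 0.139). From day 0 to day 2 the level was 1.91 times higher in EV, 1.7 in P and 1.82 in PY (adjusted p = 0.175, 0.233 and 0.135), of which the P value passed with the block (adjusted p = 0.0357).

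Slc27a4 (ENSMUSG00000059316, chr2:29802634-29817522, plus strand, GRCm38), a fatty acid transport protein of many tissues, varied least, from 41.2 to 85.6 CPM over all 51 libraries. On day 4 it had 61.1 ± 7 CPM (SD, n = 6) in EV, 68.5 ± 8.69 CPM (SD, n = 6) in P and 68 ± 4.66 CPM (SD, n = 6) in PY. The P to EV fold was 1.12 (interval 0.947 to 1.33, adjusted p = 0.675), the narrowest interval of the 9 members. Its step from day 0 to day 2 in P, 1.18-fold, passed with the block (adjusted p = 0.0341) and not without it (adjusted p = 0.235).

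Lpl (ENSMUSG00000015568, chr8:68880491-68907448, plus strand, GRCm38), the lipase that frees fatty acids from lipoproteins, started low in every group. On day 0 it had 0.87, 3.3, 4.54, 5.34 and 13.9 CPM in EV and 1.81, 8.05, 8.48, 11.2 and 21.2 CPM in P, a fold of 1.95 (interval 0.637 to 5.98, adjusted p = 1). Day 2 levels were 5.4, 10.8 and 42.3 CPM (lowest, median, highest) in EV and 115, 430.2 and 1002 CPM in P, and 145, 146, 917, 1027 and 1204 CPM in PY. All 3 groups overlapped on day 0, and on day 2 P and PY overlapped each other while both lay above all of EV. By day 4 EV had 11.4, 28.5 and 169.8 CPM, P 368, 1067 and 2881 CPM and PY 149, 1679 and 3209.6 CPM. P stayed above all of EV, whereas the lowest PY library (experiment 4) was below the highest EV library (experiment 2). The P to EV fold was 28.4 on day 2 (interval 9.2 to 87.6, adjusted p = 9.03e-05) and 24.9 on day 4 (interval 8.17 to 75.8, adjusted p = 6.8e-05), and in PY 38.8 and 30.5 (adjusted p = 2.35e-05 and 1.91e-05). Without EV day 4 replicate 2 the day 4 folds were 44.7 and 54.9. In EV the step was 3.43-fold to day 2 and 3.02-fold from day 2 to day 4, neither of which passed (adjusted p = 0.169 and 0.23). In P and PY the step from day 2 to day 4 was 2.65-fold and 2.38-fold (adjusted p = 0.277 and 0.828).

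Gpihbp1 (ENSMUSG00000022579, chr15:75596628-75599481, plus strand, GRCm38), the capillary protein that binds the lipase, was not detected beyond 3 counts in any library. It had 0 counts in 47 libraries, 1 count in 3 and 3 counts in 1, EV day 4 replicate 2. A count of 0 allows a level of up to 3 counts, which came to between 0.0247 and 1.32 CPM over the 47 libraries, for counting error only. It was left out of the tests, and no fold is given. Lpl reached 3210 CPM in cultures where its capillary partner stayed within that limit.

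Acsl1 (ENSMUSG00000018796, chr8:46471037-46536051, plus strand, GRCm38), the main long-chain acyl-CoA synthetase of fat cells, was already at a moderate level on day 0, with 40.1, 41.2, 43.5, 51 and 52.6 CPM in EV and 40.8, 44.1, 51.3, 57.9 and 61 CPM in P. These groups overlapped, and the fold was 1.12 (interval 0.534 to 2.34, adjusted p = 1). On day 2 EV had 59.6, 63 and 76.7 CPM (lowest, median, highest), P 303, 1122 and 3347 CPM and PY 479, 507, 2023, 3034 and 3156 CPM. On day 4 EV had 49.2, 65.9 and 118 CPM, P 573, 1964 and 4301 CPM and PY 163, 2455 and 4433 CPM. All P and PY libraries were above all EV libraries on both days, the PY library of experiment 4 by the least. The P to EV fold was 20.3 on day 2 (interval 9.39 to 43.8, adjusted p = 1.33e-06) and 28.9 on day 4 (interval 13.1 to 63.7, adjusted p = 3.13e-07). The PY to EV fold was 27.9 and 33.7 (adjusted p = 2.99e-07 and 7.27e-08). Within EV the step from day 0 to day 2 was 1.44-fold (interval 0.707 to 2.95, adjusted p = 0.597), upwards in 5 of 5 experiments with ranges that did not overlap. The step passed in the fit of those groups alone (adjusted p = 0.0198). The SD was 12.6% of the mean in EV on day 0 and 10% on day 2, against 85.4% in P on day 2. The main fit pooled the spread of all groups. Acsl1 shares 1039 exon bases with Gm45244 on the opposite strand, and the strand setting of the counting is not given. Gm45244 had 2716 counts in all, 0.279% of those of Acsl1.

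**Figure D3:**
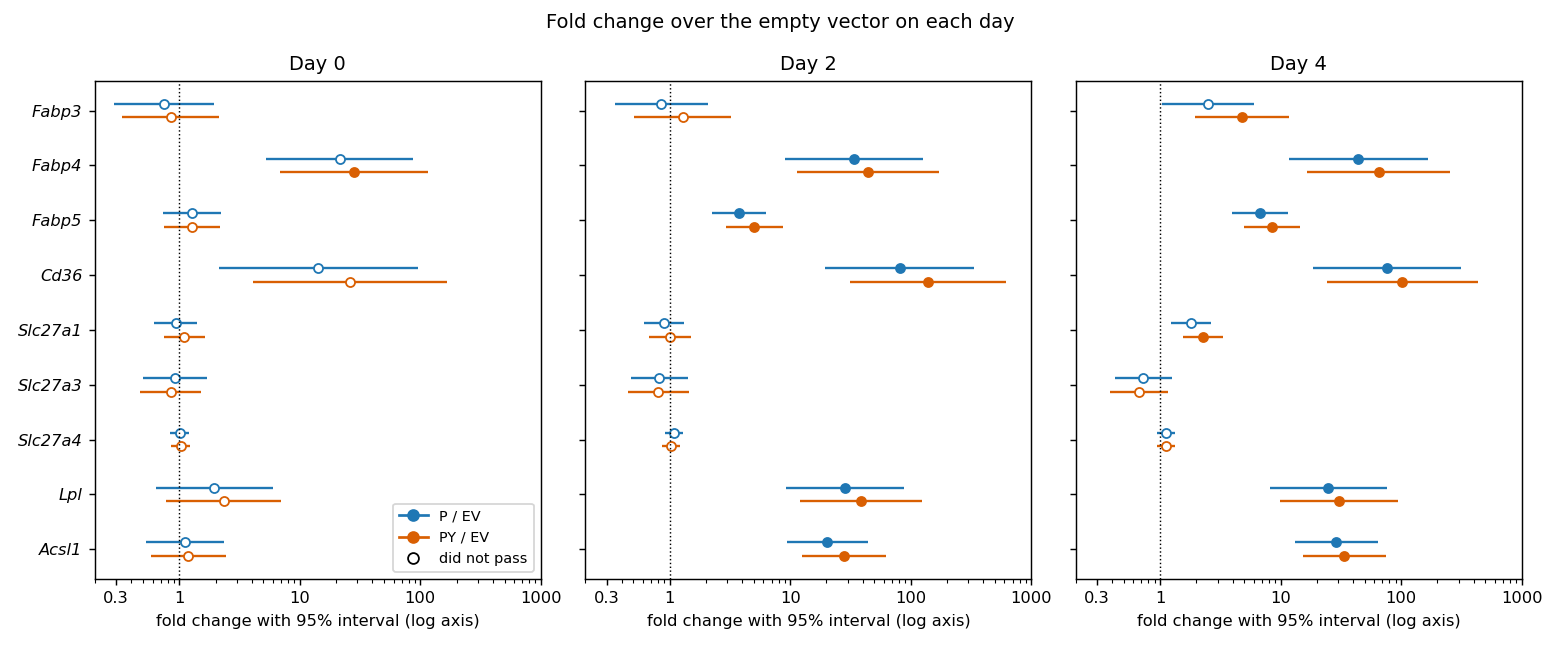
Fold change of P (blue) and PY (orange) over EV on days 0, 2 and 4, with 95% intervals on a log axis. Filled symbols passed at an adjusted p under 0.05 and open symbols did not. The intervals of Fabp4 and Cd36 lie above 1 on all 3 days, those of Lpl and Acsl1 on days 2 and 4, and those of Slc27a4 span 1 throughout.

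A change of the P to EV difference between days was tested directly. From day 0 to day 2, 1 of 9 members passed (background 0.0588%): the Acsl1 difference grew 18.2-fold (interval 6.42 to 51.4, adjusted p = 0.0197), and with the block 14.9-fold (adjusted p = 0.00898). The call was lost without any 1 of 6 of the 22 libraries (EV day 2 replicate 1, P day 0 replicates 1 to 4 and P day 2 replicate 5), with adjusted p up to 0.0859 and folds from 12.8 upwards, and when experiment 1, 2, 3, 5 or 6 was left out, with adjusted p up to 0.400 (log2 fold change 3.65 without experiment 5). The Lpl difference was 14.5 times as large on day 2 (interval 3.19 to 66.3, adjusted p = 0.32) and that of Fabp5 2.97 times as large (interval 1.4 to 6.29, adjusted p = 0.821). Neither passed with edgeR, and DESeq2 passed the Lpl change (adjusted p = 0.0223). From day 2 to day 4 the edgeR test passed 0 of 9 (background 0%), with 1 at an unadjusted p under 0.05, Slc27a1.

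Within P, 5 of 9 members rose from day 0 to day 2 (background 7.01%), by 154-fold for Cd36 (adjusted p = 3.12e-05), 49.8-fold for Lpl (adjusted p = 3.35e-05), 26.2-fold for Acsl1 (adjusted p = 1.22e-06), 19.2-fold for Fabp4 (adjusted p = 0.00214) and 4.45-fold for Fabp5 (adjusted p = 0.000205). With the block 7 of 9 passed in P, beside 13.9% of genes. The same 5 rose in PY (background 11.4%), by 143, 56.8, 33.8, 19.3 and 5.92-fold in that order. The Cd36 folds were 250.0 without the P day 0 library of experiment 6 and 239.7 without the PY day 0 library of experiment 6. In EV only Fabp4 and Cd36 passed, 2 of 9 beside 2.89% of all genes as higher. From day 2 to day 4 none of the 9 passed in EV by edgeR (background 0.0353%, 1 at an unadjusted p under 0.05, Lpl).

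**Figure D4:**
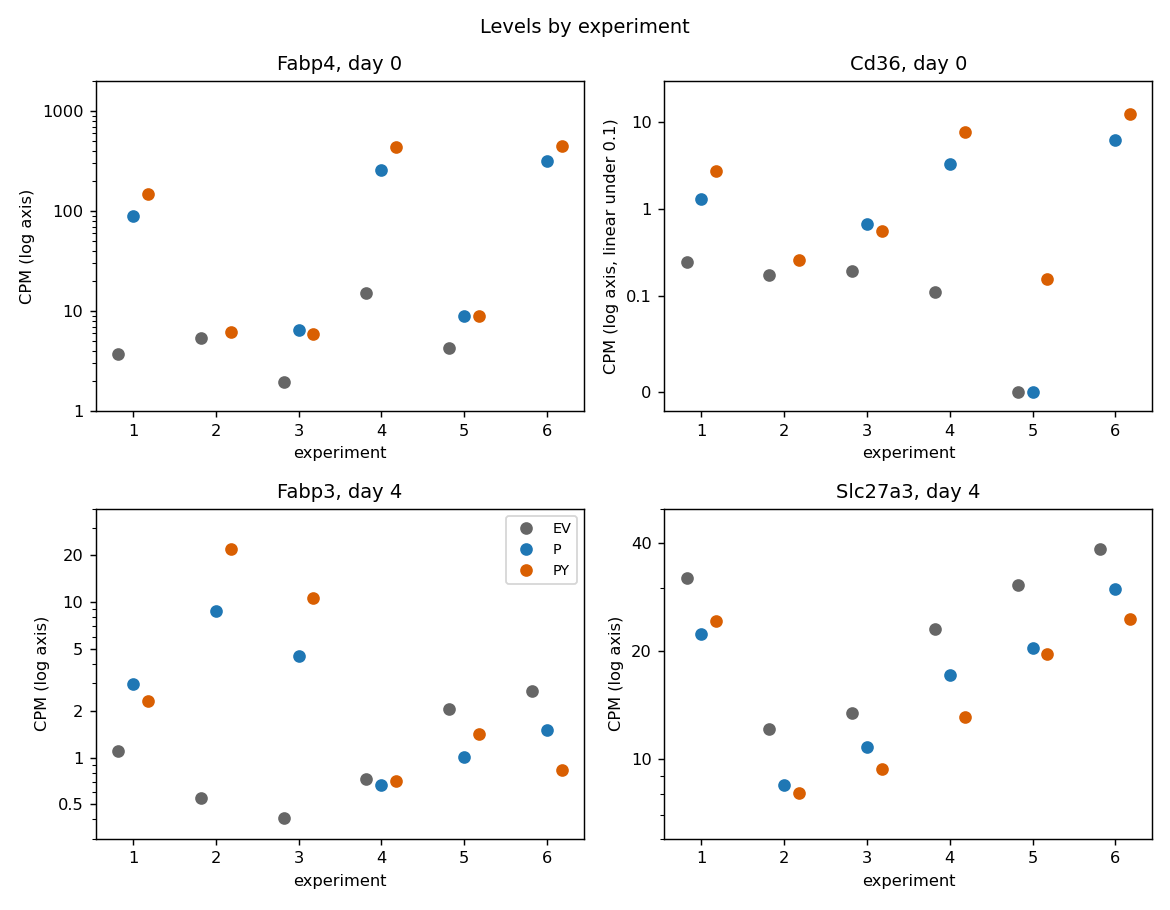
CPM of Fabp4 and Cd36 on day 0 and of Fabp3 and Slc27a3 on day 4 in each of the 6 experiments, on log axes (linear under 0.1 for Cd36), with EV in grey, P in blue and PY in orange. Early Fabp4 and Cd36 stand out in experiments 1, 4 and 6, day 4 Fabp3 in experiments 1, 2 and 3, and Slc27a3 lies below EV in all 6 experiments.

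No difference between cells with the Ybx1 and Pparg guides and cells with the Pparg guide alone was detected for the 9 members. In PY against P the edgeR test passed 0 of 9 on day 0, day 2 and day 4, where 0.0294%, 0.0118% and 0.0176% of all genes passed, and 0 had an unadjusted p under 0.05. DESeq2 and the block also passed 0 on each day, the block beside 0.0294%, 0.0235% and 0.0235% of genes. On day 4 the fold was 1.9 for Fabp3 (interval 0.808 to 4.46), 1.47 for Fabp4 (0.487 to 4.43), 1.34 for Cd36 (0.438 to 4.13), 1.26 for Fabp5 (0.769 to 2.07), 1.25 for Slc27a1 (0.864 to 1.81), 1.23 for Lpl (0.471 to 3.19) and 1.17 for Acsl1 (0.596 to 2.28). On day 2 it was 1.71 for Cd36 (0.53 to 5.51), 1.38 for Acsl1 (0.683 to 2.78), 1.37 for Lpl (0.502 to 3.71), 1.34 for Fabp5 (0.798 to 2.26) and 1.31 for Fabp4 (0.414 to 4.14). Within experiments PY was above P on day 2 in 4 of 5 for Fabp3, Fabp4, Fabp5, Cd36 and Lpl. It was 3 of 5 for Acsl1 and Slc27a1, 2 of 5 for Slc27a3 and 1 of 5 for Slc27a4. On day 0 it was 5 of 5 for Fabp3 and Slc27a1, 4 of 5 for Fabp4 and Cd36, and 3 of 5 or fewer for the others. On day 4 the intervals of Fabp4, Cd36 and Lpl were the widest in the direction of lower PY levels, and a fold of 2 in the other direction lay inside the intervals of all tested members but Slc27a1, Slc27a3 and Slc27a4. Without PY day 4 replicate 2, the library with the highest Fabp3, Cd36, Lpl and Acsl1, the day 4 fold was 0.986 for Fabp3, 0.999 for Cd36, 0.99 for Lpl and 0.98 for Acsl1. The P library of the same experiment, the highest of P for these genes, stayed in that fit. Within experiments PY was above P on day 4 in 5 of 6 for Fabp4, Fabp5, Cd36, Lpl and Acsl1. The number was 4 of 6 for Fabp3 and Slc27a1, 2 of 6 for Slc27a4 and 1 of 6 for Slc27a3. These directions were not tested.

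**Figure D5:**
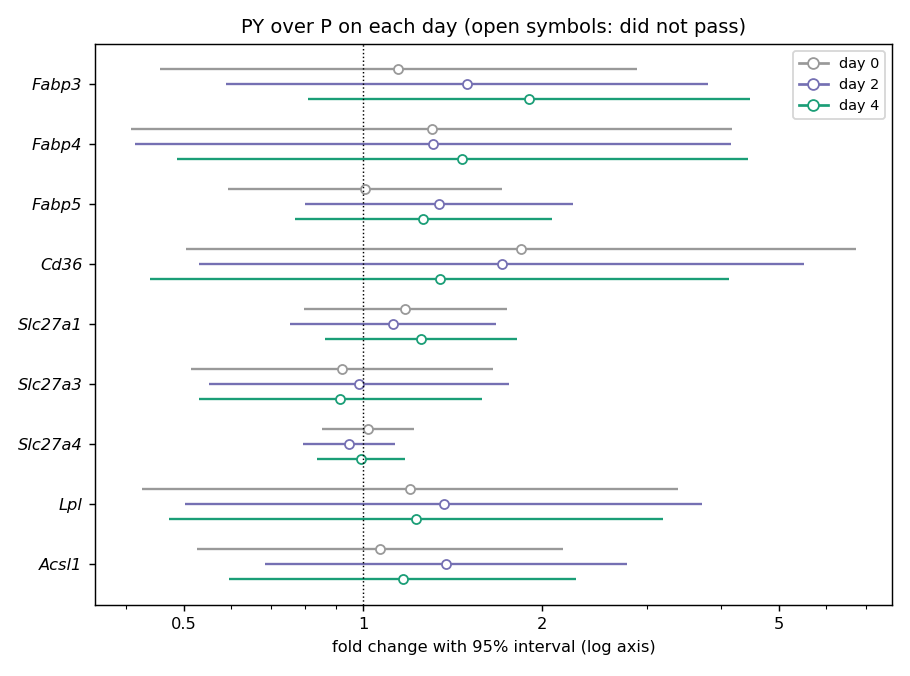
Fold change of PY over P for the 9 tested members on days 0, 2 and 4, with 95% intervals on a log axis. All symbols are open because none passed at an adjusted p under 0.05, and every interval spans 1.

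The PY library of experiment 4 on day 4 had the lowest PY level of Fabp4 (1018 CPM), Cd36 (142 CPM), Lpl (149 CPM), Acsl1 (163 CPM) and Fabp5 (49.6 CPM) on that day, and its fat cell markers summed to 230.5 CPM, the lowest of PY on day 4, against a PY median of 3230 CPM. The P library of the same experiment was also low for Lpl (368 CPM), Acsl1 (573 CPM) and Cd36 (189.9 CPM), each the lowest of P on day 4. At the other end, experiment 2 gave the highest P and PY levels of Cd36, Lpl, Acsl1, Fabp4 and Fabp3 on day 4, and also the highest EV levels of Cd36, Lpl, Acsl1 and Fabp4. Experiments 1, 4 and 6, early for Fabp4 and Cd36 on day 0, were the 3 lowest of P on day 4 for Fabp4, Cd36, Lpl and Acsl1.

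Other genes of the same routes were counted from 4 lists. Of 12 other members of the binding protein family 3 were expressed enough to test, and 0 passed in P against EV on day 2 or day 4. The share of all genes that passed as higher was 2.77% on day 2 and 5.18% on day 4, so a single call in a list of this size is near the background. Of 14 other acyl-CoA synthetase and transport genes 9 were tested and 1 passed as higher on each day: Acss2, which activates acetate, with a day 4 fold of 2.31 (adjusted p = 0.000324). With the block 2 passed on day 4, Acsf3 being the other. Of 18 genes for lipase regulation and lipoprotein receptors 13 were tested and 1 passed as higher on each day, Sort1, which encodes the sorting receptor sortilin and had 14.4 ± 14.8 CPM (SD, n = 6) in EV and 163 ± 113 CPM (SD, n = 6) in P on day 4, with folds of 16.6 on day 2 and 11.2 on day 4 (adjusted p = 2.67e-05 and 6.65e-05). Of 17 genes for caveolae and acyl-CoA handling all were tested, and 4 passed as higher on day 2 and 5 on day 4. The largest of these were Acot1 (2.78-fold, adjusted p = 0.0274) and Acot2 (2.24-fold, adjusted p = 0.00603), acyl-CoA thioesterases, and Cavin2 (2.18-fold, adjusted p = 0.00704), a caveolar coat protein, on day 2. On day 4 they were Dbi (2.62-fold, adjusted p = 0.000133), the acyl-CoA binding protein, Cavin2 (2.36-fold, adjusted p = 0.00122) and Acot2 (2.02-fold, adjusted p = 0.0126). With edgeR and no block, none of the tested genes of the 4 lists passed as lower in P against EV, and 0 passed in PY against P by edgeR.

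Angptl4 encodes a secreted inhibitor of lipoprotein lipase and is a known target of PPAR proteins. It had 100.5 ± 70.9 CPM (SD, n = 5) in EV and 479 ± 475 CPM (SD, n = 5) in P on day 0, and 225 ± 214 CPM (SD, n = 6) in EV and 418 ± 330.5 CPM (SD, n = 6) in P on day 4. The fold was 4.76, 2.92 and 1.86 on the 3 days, none of which passed (adjusted p = 1, 0.513 and 0.738). Vldlr, a lipoprotein receptor of fat and muscle, was at 1.15 times EV in P on day 4 (interval 0.769 to 1.71, adjusted p = 0.874).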

How the data were processed

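RNA was measured by sequencing of ribosomal RNA-depleted, strand-marking libraries (an Illumina TruSeq kit, per the labels' protocols). The deposited values are whole-number counts of reads per Ensembl gene, not normalized. The submitters' processing notes list featureCounts (version 1.5.2), STAR (version 2.5.3a) and edgeR (version 3.22.0), with the genome build mm10. The strand setting, the treatment of reads that fit several genes and the annotation release are not given in the sources used here.

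The 10 members and all other lists were chosen with earlier results of these data known. Genes were kept by edgeR's filterByExpr over 9 groups, scaled by trimmed mean of M values, and fitted with edgeR 4.0.16 (R 4.3.3, limma 3.58.1) as 1 quasi-likelihood model with a mean per group. Contrasts were tested two-sided with Benjamini-Hochberg adjustment over 17015 genes at 0.05, and intervals are 95% t intervals. CPM used the scaled library sizes, and lengths came from GENCODE M21 (53706 of 53801 identifiers matched). Promoter windows came from RefSeq (GRCm38.p6). The edgeR fit was tried on simulated counts for P against EV on day 2 only. Those counts were drawn without an effect of the experiment, so the trial does not cover libraries that deviate together.

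The labels number 6 experiments, and libraries of 1 experiment deviated together: the median correlation of deviations from group means was 0.36 over 192 pairs of libraries of the same experiment and other groups, against -0.09 over 963 pairs from other experiments. The experiment therefore entered as a block in an alternative fit. Other alternatives were DESeq2 1.42.0, other scaling factors, no filter, only the groups compared, leaving out the shallowest libraries, and leaving out each library or experiment. Of the other genes of the routes, the up to 3 a list with the largest log2 fold change among those that passed in P against EV or PY against P were named, besides Angptl4 and Vldlr, and for each member the 3 genes with the most similar log2 CPM.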

Additional observations from a re-analysis of the deposited data

Results flagged for a closer look

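Over 81 sets of libraries (9 members in 9 groups), 5 held a library whose gap to its nearest neighbour was too large a share of the range for a set of that size. Chance flags about 1 set in 20 where values follow a normal curve, which was not checked for these CPM values. The 5 flagged of 81 are near that rate, and each flagged value was the highest of its set. In EV, Fabp4 stood at 15.3 CPM in day 0 replicate 4, against 1.94 to 5.37 CPM in the others, and at 194 CPM in day 2 replicate 4, against 37.3 to 84.6 CPM. Both libraries are of experiment 4, in which Fabp4 was also high in P and PY on day 0. Lpl stood at 169.8 CPM in EV day 4 replicate 2, against 11.4 to 70.5 CPM, the library that also had the highest EV levels of Cd36, Fabp4 and Acsl1 on that day. Slc27a1 stood at 15.3 CPM in PY day 2 replicate 5, against 6.03 to 7.79 CPM, and Acsl1 at 81.9 CPM in PY day 0 replicate 6, against 44 to 56.1 CPM.

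The P to EV difference of Acsl1 was larger on day 2 than on day 0 by 4.18 on the log2 scale (edgeR, adjusted p = 0.0197).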

How the results depend on the processing

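In all, 64 alternatives gave 1865 recomputed values for members, of which 1783 kept direction and side of the threshold, 57 no longer passed, 20 passed newly and 5 changed sign. The number of members that passed was 1 with DESeq2 in P against EV on day 0, where it was 0 with edgeR. In PY against EV on day 0 it was 2 with DESeq2, 0 with no filter and 0 with only the groups compared. It was 0 with no filter for the EV step from day 0 to day 2, and 0 with no filter and 0 with only the groups compared for the P step from day 2 to day 4. The PY step from day 2 to day 4 had 1 with DESeq2 and 1 with the experiment as a block. The change of the P to EV difference from day 0 to day 2 had 2 with DESeq2. Leaving out each library or experiment gave 0 to 1 members for PY against EV on day 0, 0 to 2 for the EV step to day 2, 0 to 1 for the P step to day 4, 0 to 1 for the PY step to day 4 and 0 to 1 for the change of the difference. Leaving out 1 library or experiment moved the PY to P log2 difference on day 4 over -0.030 to 0.55 for Acsl1, -0.0012 to 0.91 for Cd36, -0.020 to 1.54 for Fabp3 and -0.014 to 0.68 for Lpl. The change of the Fabp4 difference from day 0 to day 2 ran over -0.013 to 1.23. The cause of these changes was not tested. The 11 Fabp5 values with its copies added up, chosen after seeing the data, kept their calls.

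The experiment as a block raised the number of genes that passed in P against EV from 481 to 941 on day 2 and from 914 to 1717 on day 4, and in PY against EV from 806 to 1739 and from 1333 to 2679. For the step from day 0 to day 2 it raised them from 1244 to 3714 in EV, from 2383 to 4847 in P and from 3867 to 6031 in PY, and for the step to day 4 from 6 to 3410, from 220 to 3405 and from 0 to 966. DESeq2 gave 280, 687 and 29 genes for the last 3. With no filter 537 genes passed for the EV step to day 2, 1435 for the P step and 55 for the P step to day 4. With only the groups compared 500 and 881 genes passed in PY against EV on days 2 and 4, 1421 for the P step to day 2 and 0 for the P step to day 4. In PY against EV on day 0 the 8 genes became 20 with DESeq2, 24 with the block and 3 with only the groups compared, and for the change of the P to EV difference to day 2 the 10 genes became 62 with DESeq2 and 2 with no filter. In P against EV on day 0 DESeq2 passed 6 genes in place of 1, and in PY against P every alternative passed 8 or fewer. Calls of members that the block changed are given beside their results, and it changed no other. At these depths a count of 0 for Gpihbp1 allows up to 0.0247 CPM in the deepest library and up to 1.32 CPM in the shallowest, and in EV on day 0 Cd36 had 0 to 12 and Fabp3 12 to 97 counts per library.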

Other observations

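Over the 51 libraries the log2 CPM of members that rose in P and PY ran together, with a Pearson r of 0.97 between Fabp4 and Cd36 and of 0.88 between Fabp4 and Fabp5, while Fabp4 and Fabp3 had an r of 0.10. These points share libraries, groups and experiments, so r is a description, without a p. Among 12984 other genes with a mean of at least 1 CPM, those most like Fabp4 were Ephx2 (r = 0.96), Cidec, a lipid droplet protein, and Aqp7, a glycerol channel. Cd36 was most like Trarg1 (r = 0.98), Plin1, which coats lipid droplets, and Pcx, the pyruvate carboxylase. Lpl was most like Aldh1a7 (r = 0.98), Dapk1 and Sort1, and Acsl1 was most like Adipor2 (r = 0.98), Agpat2, an enzyme of triglyceride synthesis, and Lipe, the hormone-sensitive lipase. Fabp5 was most like its copy Gm6166 (r = 0.96), Aldh3b2 and Slc25a10.

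Members that did not pass in P against EV on day 2 were most like other genes. Slc27a1 was most like Slc8b1 (r = 0.76), Abca2 and Aacs, and Slc27a3 like Cldn19 (r = 0.93), Rian and Cul7. Slc27a4 was most like Mlf2 (r = 0.88), Rab1b and Gna12, and Fabp3 like D5Ertd579e (r = 0.68), Lhfpl2 and Dnajb9. The group (transfection and day) held 88.5% of the variance of log2 CPM of Cd36 and 87.5% of that of Acsl1, beside 1.53% and 3.85% held by the experiment. For Slc27a4 the group held 21.1% and the experiment 42.3%, for Slc27a3 37.9% and 36.3%, and for Fabp3 17.1% and 27.2%. The share of the experiment counts only a shift common to all groups. Shifts that change direction between groups fall into the rest, which was 10% for Cd36 and 8.7% for Acsl1. In experiment 6 the log2 deviation of Cd36 from the group mean was 2.5 in P on day 0 and -1.37 in P on day 4.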
